A study of Homo sapiens with 6 samples.

Results

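The transcripts of glycolysis, the pentose phosphate pathway and the citrate cycle were measured in HCT116 cells, a human colorectal cancer line, with and without added CYGB, the gene of the haem protein cytoglobin. The set was defined by symbol, from 46 enzymes and transporters grouped by pathway step. It corresponded to 47 of the 40173 genes in the count table, because ALDOA is listed under 2 gene identifiers. All 47 passed the filter on low counts. The HCT116-MOCK group (3 libraries, genotype labelled wild type) received a control lentivirus. The HCT116-CYGB group (3 libraries, genotype labelled CYGB overexpression) received a lentivirus with the CYGB coding region fused to FLAG. Both groups shared the parental line, the labelled passage range, viral transduction and puromycin selection, so the controls also carry viral insertions and went through the drug selection. The 3 libraries of a group are labelled biological replicates, and whether they came from separate transductions is not given in the sources used here. P-values therefore measure the spread between these libraries. In bulk RNA, fewer expressing cells and less RNA per cell cannot be told apart.

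Glycolysis splits glucose to pyruvate in the cytosol, and lactate dehydrogenase and the monocarboxylate transporters turn pyruvate into lactate and export it. The pentose phosphate pathway diverts glucose phosphate to make NADPH, which keeps glutathione reduced, and ribose for nucleotides. In mitochondria, the pyruvate dehydrogenase complex and the citrate cycle oxidise what pyruvate remains, and pyruvate carboxylase refills the cycle. Colon cancer cells are known for high lactate output in the presence of oxygen.

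Library totals ranged from 58138393 to 66035266 counts, of which 47193496 to 53531777 belonged to a named gene. The added gene set the groups apart, with 10, 28 and 34 counts of CYGB in MOCK replicates 1 to 3 against 34935, 27681 and 32333 in CYGB replicates 1 to 3. Levels are given as CPM, counts scaled to a common library size by edgeR's TMM method. The marker levels that follow were scaled without TMM, by each library's counts in the genes tested. The 7 epithelial markers summed to 4219 to 4678 CPM in MOCK and 4220 to 4601 CPM in CYGB, although CLDN4 was near 0 (0.127 to 1.64 CPM). Of the 4 intestinal markers, CDX2 stood at 15.0 to 19.5 CPM, and VIL1, CDH17 and LGALS4 did not exceed 0.795 CPM. The 5 fibroblast markers summed to 44.6 to 50.6 CPM in MOCK and 48.1 to 53.1 CPM in CYGB, nearly all of it COL1A1, with COL1A2, COL3A1, DCN and LUM at 0.389 CPM or less. The 4 leukocyte markers summed to at most 0.935 CPM. The ranges of the groups overlapped for each of these 4 lists.

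Pyruvate kinase M, the last enzyme of glycolysis, is made in 2 forms from a single gene, which differ in which of a pair of exons is kept. Both exons are shown because the counts of PKM below are divided by them. Each is 167 bases long and lies on the minus strand of chromosome 15 of GRCh38, the PKM1 exon at chr15:72203022-72203188 (read from transcript ENST00000319622 of GENCODE 29) and the PKM2 exon at chr15:72202454-72202620 (from ENST00000335181). Capitals mark the positions at which the exons differ, and 105 of the 167 positions (62.9%) are the same.
PKM1 exon: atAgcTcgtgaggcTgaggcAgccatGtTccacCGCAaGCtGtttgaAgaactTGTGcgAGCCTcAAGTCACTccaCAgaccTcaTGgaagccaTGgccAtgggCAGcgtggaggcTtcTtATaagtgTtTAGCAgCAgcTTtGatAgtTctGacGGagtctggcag
PKM2 exon: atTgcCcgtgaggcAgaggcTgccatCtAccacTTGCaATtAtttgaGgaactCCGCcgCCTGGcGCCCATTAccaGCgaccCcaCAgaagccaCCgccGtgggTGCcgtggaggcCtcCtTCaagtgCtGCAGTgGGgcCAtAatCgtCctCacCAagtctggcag

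No gene of these pathways reached the threshold taken from the study's methods, which asks for p of 0.01 or less without adjustment and for a ratio of at least 2 or at most 0.5. Across all 19987 genes tested, 113 did (0.565%). No member had an adjusted p under 0.05 in edgeR's quasi-likelihood test after adjustment over all genes by the Benjamini-Hochberg method (lowest 0.963) or in DESeq2 (lowest 0.0538), against 0.0550% of all genes in edgeR and 0.543% in DESeq2. At an unadjusted p under 0.05 edgeR gave 3 members, LDHA, PCK2 and SUCLG2. That is 6.38% of the set beside 4.54% of all genes, and DESeq2 also gave 3, beside 6.16% of all genes. LDHA and PCK2 were the 2 members with p of at most 0.01, which 0.841% of all genes reached. In 5 members (10.6%) the MOCK and CYGB libraries did not overlap, namely LDHA, PKM and SUCLG2, which were lower with CYGB, and PCK2 and PC, which were higher. The share among all genes tested was 11.0%.

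Most members stayed close to their MOCK level. The estimate was above 0 for 27 genes and below 0 for 20, with a median log2 fold change of 0.018, beside -0.007 over all genes tested. The size of the change was under 0.3 on the log2 scale in 42 of 47 members (89.4%). In all genes tested that share was 66.2%, and among the 8520 genes at or above the lowest member's mean of 16.5 CPM it was 82.3%. The median size of the change was 0.080 in the set, 0.113 in those 8520 genes and 0.180 in all genes.

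The counts above moved when single libraries were left out. Without MOCK replicate 3, PCK2 met the threshold of the methods, as did 0.853% of all genes (log2 fold change 1.04, unadjusted p = 0.00244, adjusted p = 0.440 in edgeR's quasi-likelihood test). Without CYGB replicate 2, 7 members had an unadjusted p under 0.05, beside 4.53% of all genes. Without CYGB replicate 1 the groups no longer overlapped in 18 members (38.3%), beside 21.5% of all genes. The other omissions gave 5 to 10 such members (10.6 to 21.3%), beside 18.7 to 23.6% of all genes.

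**Figure D1:**
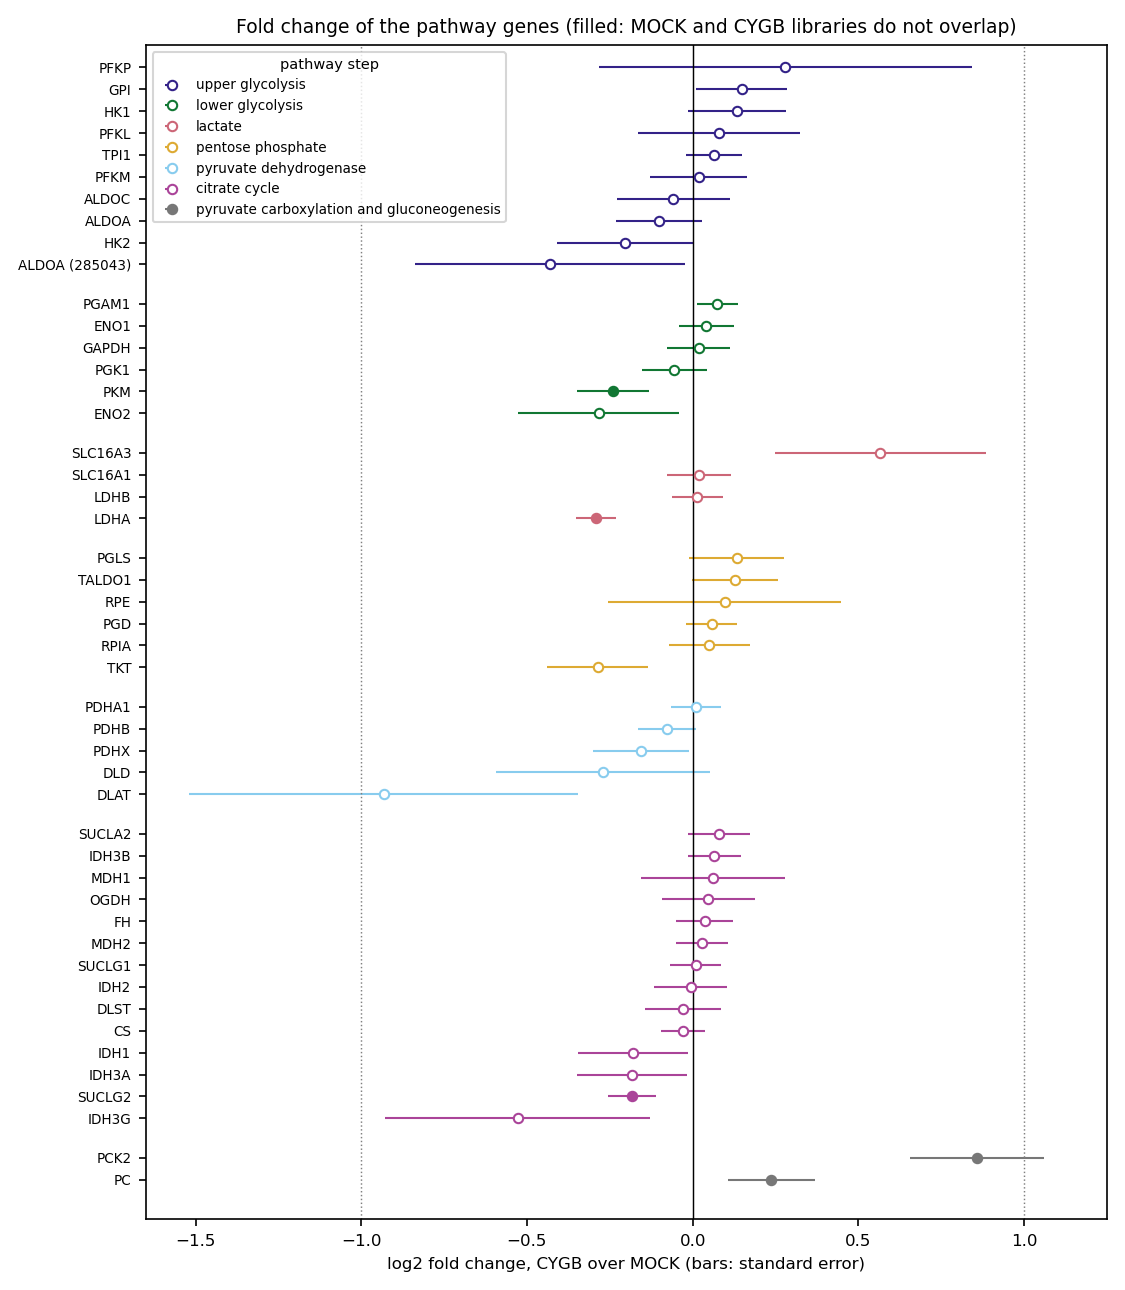
The log2 fold change of CYGB over MOCK (x axis) is drawn for each of the 47 genes, grouped by pathway step, with bars for the standard error, dotted lines at a ratio of 2 and 0.5, and filled points where the libraries of the groups do not overlap. Most points lie within 0.3 of 0, PCK2 is the highest at 0.86, and DLAT is the lowest at -0.93 with the widest bar.

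LDHA, the subunit of lactate dehydrogenase that prevails in tissues that form lactate, had the smallest p of the set in edgeR, and the second smallest after PCK2 in DESeq2. It lies on the plus strand of chromosome 11 of GRCh38, from 18394388 to 18408425. Its level was 1815, 1691 and 1752 CPM in MOCK replicates 1 to 3 and 1389.8, 1414 and 1491 CPM in CYGB replicates 1 to 3. Every CYGB library was below every MOCK library, and the group means were 1753 ± 61.7 CPM with MOCK and 1431 ± 52.6 CPM with CYGB (SD, n = 3 each). The log2 fold change was -0.29 with a standard error of 0.06, a ratio of 0.817 (unadjusted p = 0.00271, adjusted p = 0.963 in edgeR's quasi-likelihood test). DESeq2 gave an adjusted p of 0.0775. The leading transcript of LDHA, LDHA-205, taken alone had a log2 fold change of -0.17 and an unadjusted p of 0.155 in edgeR.

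LDHB, the subunit that prevails in tissues that oxidise lactate, did not follow LDHA. Its level was 1051, 1162 and 1085 CPM in MOCK and 1198, 1069 and 1064 CPM in CYGB, and the groups overlapped (log2 fold change 0.01, standard error 0.08). Of the summed counts of LDHA and LDHB, LDHB thus held 36.7, 40.7 and 38.2% in MOCK and 46.3, 43.05 and 41.65% in CYGB. All 3 CYGB libraries were above the MOCK libraries in this share, by 5.12 percentage points in the mean (38.5% ± 2.04 and 43.7% ± 2.38, SD, n = 3 each). The exact two-sided permutation test gave p = 0.1, the smallest that 3 against 3 libraries allow, and 0.367 after Benjamini-Hochberg adjustment over the 11 isozyme shares compared.

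The lactate transporters were measured beside the enzymes. SLC16A3, the transporter linked to lactate export, stood at 436, 377 and 373 CPM in MOCK and 511, 359 and 885 CPM in CYGB. The value in CYGB replicate 3 was 2.03 times the mean of the other CYGB libraries, and the groups overlapped (log2 fold change 0.57, standard error 0.32, unadjusted p = 0.125 in edgeR). The estimate was 0.14 without CYGB replicate 3 and 0.82 without CYGB replicate 2 (unadjusted p = 0.0197). SLC16A1, which carries lactate in either direction, lay between 145 and 172 CPM in all 6 libraries.

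PKM was lower in each CYGB library than in any MOCK library. It lies on the minus strand of chromosome 15, from 72199029 to 72231822. The levels were 3106, 3063 and 3349 CPM in MOCK and 2277, 2916 and 2867 CPM in CYGB (log2 fold change -0.24, standard error 0.11, unadjusted p = 0.0685 in edgeR). CYGB replicate 1 was the lowest of the 6 libraries, and the estimate without that library was -0.13 on the log2 scale.

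The other enzymes of lower glycolysis were close to their control levels. GAPDH, which makes the NADH of glycolysis, stood at 10794.1, 11189 and 11619 CPM in MOCK and 10020.1, 11269 and 12736 CPM in CYGB, with the CYGB libraries on both sides of the MOCK range (log2 fold change 0.02, standard error 0.10). ENO1, PGK1 and PGAM1, which carry the carbon from GAPDH to PKM, had log2 fold changes of 0.04, -0.05 and 0.07. ENO2, the enolase named for neurons, had -0.28 with a standard error of 0.24. Of the 6 genes of this step, 3 had estimates above 0 and 3 below, and none had an unadjusted p under 0.05.

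The PKM transcripts could be split by the exons shown above, a comparison chosen after the values were seen. Of the 25 PKM transcripts listed, 7 hold the PKM1 exon, 5 the PKM2 exon, 1 both and 12 neither in full. Transcripts with the PKM2 exon held 66.0 to 78.6% of the PKM counts in MOCK and 58.5 to 83.2% in CYGB. The PKM1 share of the counts assigned to either exon was 17.8, 18.3 and 13.4% in MOCK and 26.4, 8.52 and 32.25% in CYGB. CYGB replicate 2 was below and the other CYGB libraries above all MOCK libraries, and the difference of 5.86 percentage points was within the spread (exact two-sided permutation p = 0.5).

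Single PKM transcripts varied far more than their sum. PKM-202, which encodes the PKM2 form, had 6956, 25582 and 133792 counts in MOCK and 63542, 56476 and 51885 in CYGB. PKM-219, annotated for nonsense-mediated decay and also with the PKM2 exon, had 88424, 89398 and 0 counts in MOCK and 0, 65463 and 0 in CYGB. Within MOCK, the libraries with many counts of PKM-219 had few of PKM-202, and replicate 3 had the reverse. Within CYGB there was no such exchange, as replicate 2 had many counts of both. PKM-203, also with the PKM2 exon, had 231, 0 and 0 counts in MOCK and 10631, 0 and 34904 in CYGB.

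**Figure D2:**
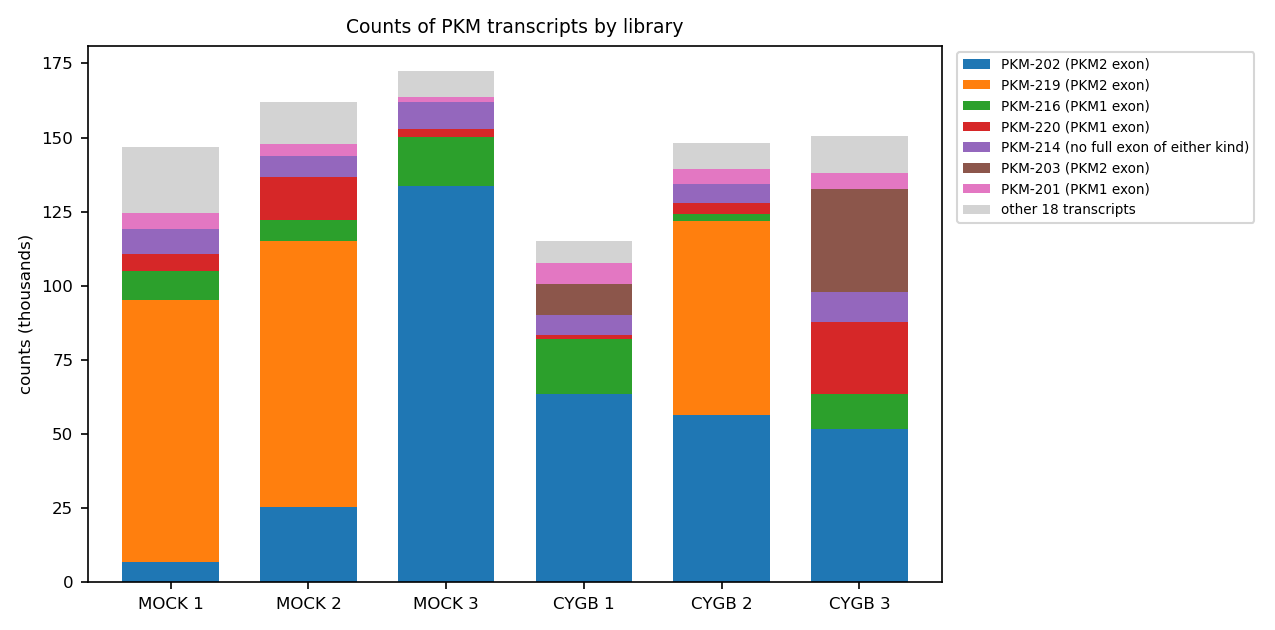
Counts of the 7 most abundant PKM transcripts and of the other 18 together (y axis) are stacked for each library (x axis). PKM-219 is large in MOCK replicates 1 and 2 and CYGB replicate 2 and at 0 in the other libraries, where PKM-202 is the most abundant transcript.

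SUCLG2 and PCK2 were the members beyond pyruvate with an unadjusted p under 0.05. SUCLG2 encodes the GTP-forming subunit of succinyl-CoA ligase, on the minus strand of chromosome 3 from 67360460 to 67654614. It had 106.9, 109.2 and 107.0 CPM in MOCK and 92.9, 99.2 and 92.4 CPM in CYGB. The MOCK libraries lay close together and above all CYGB libraries (log2 fold change -0.18, standard error 0.07, unadjusted p = 0.0417, adjusted p = 0.963 in edgeR). The unadjusted p was 0.0732 with no expression filter, 0.0839 to 0.123 in omissions of each library other than CYGB replicate 2, and 0.216 for the most abundant transcript alone. Its ATP-forming counterpart SUCLA2 had 51.3 to 56.1 CPM in MOCK and 53.9 to 60.1 CPM in CYGB. SUCLA2 made up 33.5% ± 1.03 of their summed counts in MOCK and 37.7% ± 1.37 in CYGB (SD, n = 3 each), without overlap (exact two-sided permutation p = 0.1, adjusted 0.367). With counts divided by transcript length, the SUCLA2 share was 37.5% in MOCK and 40.25% in CYGB. That difference was 2.78 percentage points, with p = 0.2 in the same permutation test.

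PCK2, the mitochondrial phosphoenolpyruvate carboxykinase, had the highest fold change of the set. It lies on the plus strand of chromosome 14, from 24094053 to 24110598. Its level was 17.5, 16.7 and 24.0 CPM in MOCK and 39.5, 37.4 and 28.5 CPM in CYGB. MOCK replicate 3 and CYGB replicate 3 were the nearest to each other, and the groups did not overlap. The group means were 19.4 ± 4.003 CPM with MOCK and 35.2 ± 5.83 CPM with CYGB (SD, n = 3 each). CYGB over MOCK was a ratio of 1.81, or 0.86 on the log2 scale with a standard error of 0.20 (unadjusted p = 0.00527, adjusted p = 0.963 in edgeR, adjusted p = 0.0538 in DESeq2).

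The higher sum of PCK2 counts was not shared by each of its transcripts. PCK2-201, the most abundant, had 269, 306 and 311 counts in MOCK and 1147, 1471 and 321 in CYGB. PCK2-203 had 119, 178 and 151 counts in MOCK and 0, 0 and 11 in CYGB. The leading transcript differed between libraries within each group.

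PC, pyruvate carboxylase, was the other member that was higher without overlap in CPM. It lies on the minus strand of chromosome 11, from 66848233 to 66958376. Its level was 14.4, 15.8 and 15.3 CPM in MOCK and 17.1, 16.5 and 20.0 CPM in CYGB (log2 fold change 0.24, standard error 0.13, unadjusted p = 0.119 in edgeR), or 0.15 without CYGB replicate 3. With counts divided by transcript length, the groups overlapped for PC. LRFN4 overlaps it on the opposite strand with 214% of its counts, and whether the counting used strand is not given in the sources used here.

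**Figure D3:**
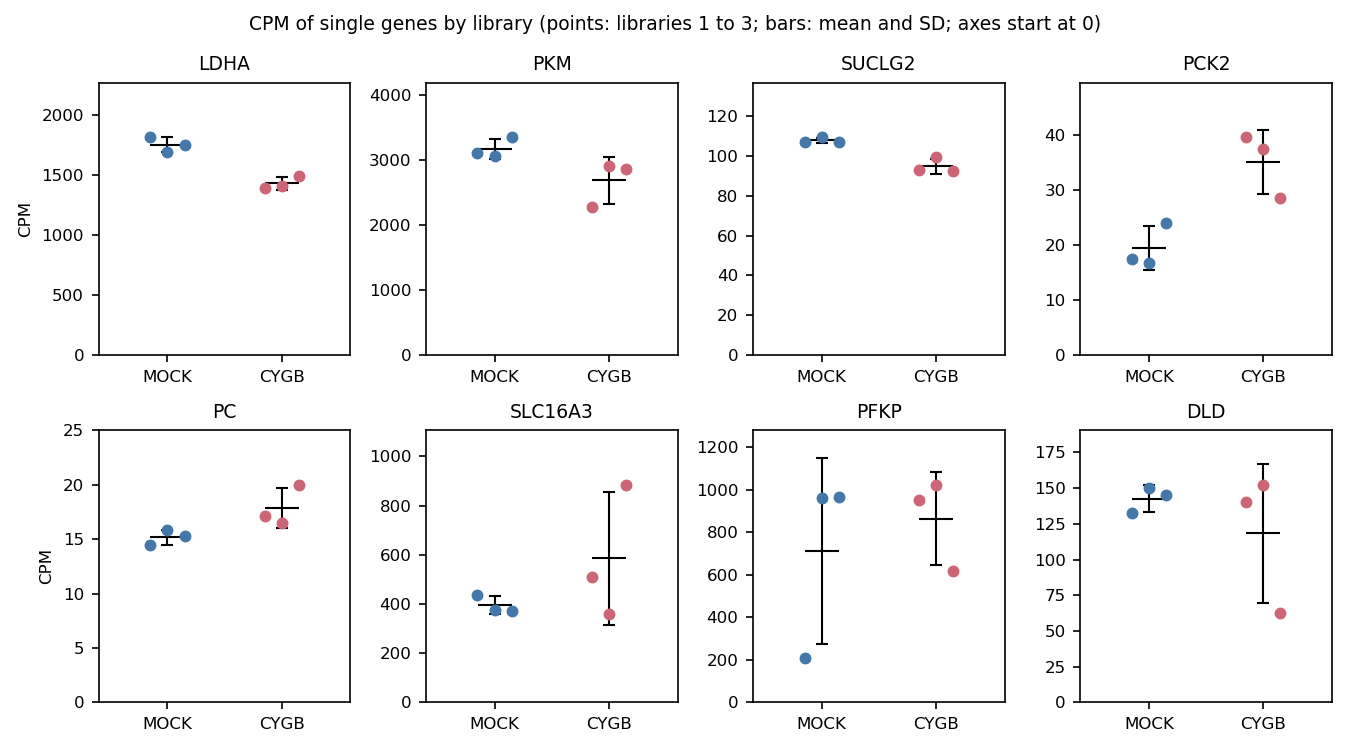
CPM of 8 genes (y axis, from 0) is shown for each MOCK and CYGB library, with the mean and SD. LDHA, PKM, SUCLG2, PCK2 and PC have groups that do not overlap. A single library lies far from the others of its group in SLC16A3 and DLD (CYGB replicate 3). PFKP has such a library in each group (MOCK replicate 1 and, less far, CYGB replicate 3).

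Upper glycolysis held 10 of the genes, and none had an unadjusted p under 0.05. Hexokinase 1 and 2, which trap glucose as its phosphate, had log2 fold changes of 0.13 (HK1, standard error 0.15) and -0.21 (HK2, standard error 0.20). The HK2 share of their counts was 40.2, 45.4 and 44.5% in MOCK and 37.9, 37.5 and 38.5% in CYGB. It was lower in all 3 CYGB libraries, with a difference of -5.40 percentage points (43.4% ± 2.78 and 38.0% ± 0.497, SD, n = 3 each, exact two-sided permutation p = 0.1, adjusted 0.367).

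Phosphofructokinase, the committed step, is encoded by PFKL, PFKM and PFKP. PFKP stood at 209, 963 and 964 CPM in MOCK and at 953, 1024 and 616 CPM in CYGB. MOCK replicate 1 was 4.62-fold below the mean of the other MOCK libraries and the groups overlapped (log2 fold change 0.28, standard error 0.56). The PFKP share of the 3 genes was 57.5% ± 20.1 in MOCK and 65.8% ± 10.3 in CYGB (SD, n = 3 each, exact two-sided permutation p = 0.6, adjusted 0.733). The difference in this share was 8.26 percentage points with and -3.27 without MOCK replicate 1.

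Aldolase A, which splits the 6-carbon sugar, was counted under 2 identifiers that overlap on the same strand of chromosome 16. ENSG00000149925 had 2278, 2467 and 2681 CPM in MOCK and 2085, 2739 and 2089 CPM in CYGB (log2 fold change -0.10, standard error 0.13). ENSG00000285043, named AC093512.2 in GENCODE 29, had 396, 707 and 381 CPM in MOCK and 336, 210 and 554 CPM in CYGB (log2 fold change -0.43, standard error 0.41). How reads were divided between them is not given in the sources used here. GPI, TPI1 and ALDOC had log2 fold changes of 0.15, 0.06 and -0.06.

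The pentose phosphate genes were near their control levels, with 5 of 6 estimates above 0. TKT, the transketolase that links the pathway back to glycolysis, was the exception. It had 405, 510 and 356 CPM in MOCK and 321, 332 and 389 CPM in CYGB, and CYGB replicate 3 lay within the MOCK range (log2 fold change -0.29, standard error 0.15, unadjusted p = 0.106 in edgeR). The estimate was -0.13 without MOCK replicate 2 and -0.40 without MOCK replicate 3 (unadjusted p = 0.0370). PGD, which yields NADPH, stood at 218 to 244 CPM in MOCK and 228 to 251 CPM in CYGB (log2 fold change 0.06, standard error 0.08). TALDO1, the transaldolase, had a log2 fold change of 0.13, and PGLS, RPE and RPIA had 0.13, 0.10 and 0.05.

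In the pyruvate dehydrogenase complex, 4 of 5 estimates were below 0 and none had an unadjusted p under 0.05. DLAT, the acetyl-transferring core, had 112, 40.5 and 27.8 CPM in MOCK and 47.6, 25.9 and 21.1 CPM in CYGB. Its MOCK libraries spread over more than the difference between the groups (log2 fold change -0.93, standard error 0.59, unadjusted p = 0.163 in edgeR). DLD, the lipoamide dehydrogenase of this and other complexes, had 132, 150.4 and 145 CPM in MOCK and 140.1, 152 and 62.5 CPM in CYGB. CYGB replicate 3 alone was low, and the log2 fold change was -0.27 with and 0.04 without that library. The subunits PDHA1 and PDHB, which decarboxylate pyruvate, had log2 fold changes of 0.01 and -0.08, and PDHX, which anchors DLD, had -0.16.

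The 14 genes of the citrate cycle divided evenly, with 7 estimates above and 7 below 0 and a median log2 fold change of 0.001. MDH2, the mitochondrial malate dehydrogenase, had 361, 372 and 400.2 CPM in MOCK and 368, 375 and 413 CPM in CYGB. Citrate synthase (CS), the entry to the cycle, had 299 to 319 CPM in MOCK and 288 to 311 CPM in CYGB. Estimates near 0 were also seen for FH, the fumarase (log2 fold change 0.04), SUCLG1, the subunit shared by both succinyl-CoA ligases (0.01), IDH3B, a subunit of the NAD-linked isocitrate dehydrogenase (0.07), and DLST, of the oxoglutarate dehydrogenase complex (-0.03).

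IDH3G, the gamma subunit of the NAD-linked enzyme, departed furthest in the cycle. It had 51.7, 54.4 and 42.8 CPM in MOCK and 55.3, 30.4 and 17.6 CPM in CYGB, so that the CYGB libraries ran from above to far below the MOCK range (log2 fold change -0.53, standard error 0.40, unadjusted p = 0.234 in edgeR). The estimate was -1.05 without CYGB replicate 1 (unadjusted p = 0.0123) and -0.21 without CYGB replicate 3. SSR4, on the opposite strand, holds 146% of its counts. IDH3A had a log2 fold change of -0.18 with a standard error of 0.17. The NADP-linked enzymes IDH1 (cytosolic) and IDH2 (mitochondrial) had -0.18 and -0.01, and the IDH1 share of both was 48.5% ± 4.45 in MOCK and 45.9% ± 6.09 in CYGB (SD, n = 3 each). MDH1, the cytosolic malate dehydrogenase, had 152, 206 and 203 CPM in MOCK and 141, 213 and 232 CPM in CYGB, and OGDH had a log2 fold change of 0.05. Neither set the groups apart.

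**Figure D4:**
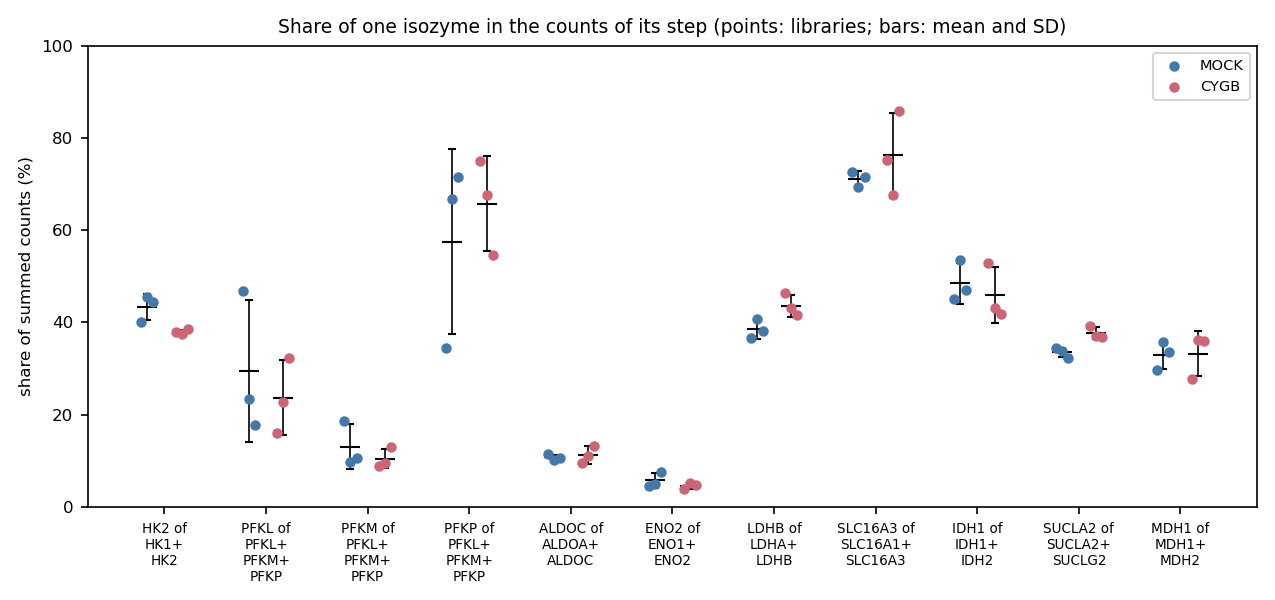
The share of a gene in the summed counts of its isozymes (percent, y axis) is drawn for each library, with mean and SD. HK2, LDHB and SUCLA2 are the 3 shares of 11 in which MOCK and CYGB do not overlap, with differences of -5.40, 5.12 and 4.19 percentage points.

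The 8 other shares overlapped between the groups, with adjusted exact permutation p-values of 0.733 to 0.8. PFKL held 29.4% ± 15.4 of the phosphofructokinase counts in MOCK and 23.7% ± 8.20 in CYGB, and PFKM 13.1% ± 4.88 and 10.5% ± 2.13, both with MOCK replicate 1 as the highest library. ENO2 held 5.78% ± 1.604 of the enolase counts in MOCK and 4.67% ± 0.647 in CYGB, ALDOC 10.8% ± 0.612 and 11.3% ± 1.88 of the aldolase counts under all 3 identifiers, and MDH1 33.0% ± 3.08 and 33.3% ± 4.86 of the malate dehydrogenase counts (SD, n = 3 each). SLC16A3 held 71.1% ± 1.69 of the transporter counts in MOCK and 76.2% ± 9.18 in CYGB, a difference of 5.10 percentage points that was 0.257 without CYGB replicate 3.

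Single libraries departed from their group in 12 of the 47 genes (25.5%), taking as a departure a level more than 1.5-fold from the mean of the other 2 libraries. Among the 8520 genes in the same range of levels the share was 28.99%. The departures were not confined to a library, with 3 to 6 genes in each. These counts per library are raised because an outlying library also shifts the mean that its partners are compared with. In PFKP, MOCK replicates 2 and 3 counted as departures (ratios of 1.642 and 1.645) beside the low MOCK replicate 1. Beside PFKP, DLAT, DLD, IDH3G and SLC16A3, RPE, the ribulose phosphate epimerase, ranged from 26.8 to 66.8 CPM within MOCK.

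TPM, counts divided by transcript length and scaled to a common total, allowed levels to be compared between genes. GAPDH was at 14240 ± 659 TPM in MOCK and 14560 ± 1771 TPM in CYGB (SD, n = 3 each) and ranked 4 among all genes. ENO1 (mean of all libraries 5326 TPM, rank 11), ALDOA (3274 TPM, rank 28) and PKM (2692 TPM, rank 38) followed. LDHB and LDHA were at 1622 ± 104 and 1620 ± 40.0 TPM in MOCK, and at 1671 ± 132 and 1331 ± 13.5 TPM in CYGB. The subunits of dehydrogenase complexes and citrate cycle enzymes were lower, from 356 TPM in MDH2 down to 21.6 TPM in DLAT. PCK2 (30.8 TPM, rank 4963) and PC (15.0 TPM, rank 7899) were near the bottom of the set.

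Summed by step, the set held 3.85, 4.11 and 4.21% of all TPM in MOCK and 3.70, 4.24 and 4.33% in CYGB. Lower glycolysis made up 2.44 to 2.61% in MOCK and 2.24 to 2.80% in CYGB. The citrate cycle held 0.167 to 0.184% in MOCK and 0.173 to 0.186% in CYGB. The groups did not overlap in 2 of the 7 steps, beside 11.0% of single genes in CPM. PC with PCK2 held 0.00345, 0.00307 and 0.00413% in MOCK and 0.00575, 0.00512 and 0.00596% in CYGB. PC alone overlapped, at 15.0, 11.3 and 15.4 TPM in MOCK and 18.7, 14.05 and 15.6 TPM in CYGB. The pyruvate dehydrogenase complex held 0.0325, 0.0320 and 0.0311% in MOCK and 0.0307, 0.0300 and 0.0247% in CYGB. In each of its 5 genes the groups overlapped in CPM.

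**Figure D5:**
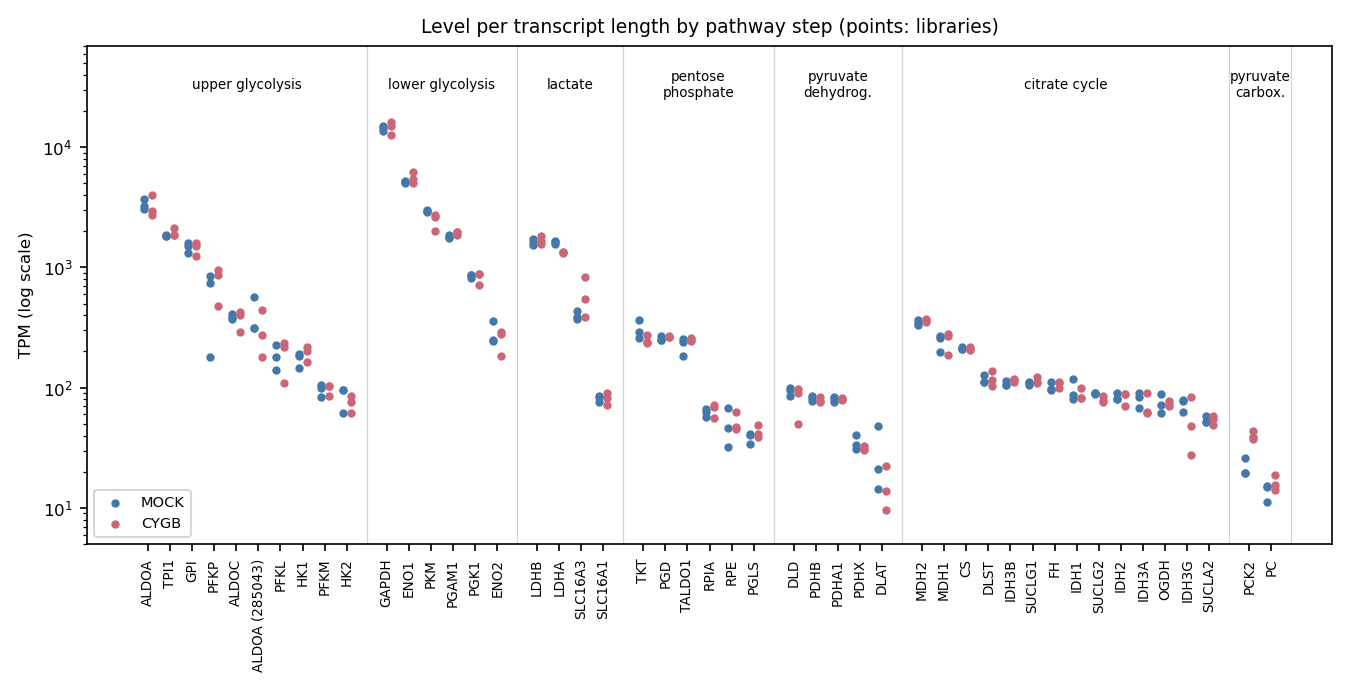
TPM (y axis, log scale) is shown for each gene, ordered by level within its pathway step, with a point for each library. Lower glycolysis spans from GAPDH at 14400.0 TPM to ENO2 at 269 TPM in the mean of all libraries, the citrate cycle from 356 to 53.9 TPM, and PCK2 is the gene whose CYGB points stand most clearly above its MOCK points.

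Per transcript, 6 of the 362 member transcripts tested met the threshold of the methods (1.66%), beside 1.02% of all 66609 transcripts tested. The table lists 553 transcripts of these genes. The 6 came from SLC16A3, IDH3G and MDH1, 2 higher and 4 lower with CYGB, and none had an adjusted p under 0.05 (lowest 0.299 in edgeR's quasi-likelihood test). SLC16A3-220 was at 0 counts in all MOCK libraries and had 841, 546 and 179 counts in CYGB. That is at least 523-fold higher, taking 3 counts over the MOCK group as the floor. IDH3G-207 was also at 0 in MOCK and had 298, 166 and 72 counts in CYGB, at least 179-fold higher by the same floor. Both had the lowest CYGB count in replicate 3.

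The 4 transcripts that were lower belonged to the same 3 genes. SLC16A3-208, a retained intron, had 754, 947 and 569 counts in MOCK and 370, 278 and 303 in CYGB (log2 fold change -1.26). IDH3G-212 had 472, 1545 and 613 counts in MOCK and 243, 189 and 248 in CYGB (log2 fold change -1.93), and IDH3G-211 had 145, 125 and 129 in MOCK and 53, 22 and 38 in CYGB (log2 fold change -1.83). MDH1-213, also a retained intron, had 128, 81 and 62 counts in MOCK and 30, 32 and 21 in CYGB (log2 fold change -1.72). These transcripts share sequence with others of their gene. Of all windows of 150 bases, the read length, those absent from the gene's other transcripts made up 0% in MDH1-213, 13.1% in IDH3G-212, 25.1% in IDH3G-207, 32.6% in IDH3G-211, 34.6% in SLC16A3-220 and 54.3% in SLC16A3-208. In 21 of the 47 genes the most abundant transcript differed between libraries of the same group. The part of isoform assignment in these results was not tested.

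Other genes of the pathways, 66 in a separate list of isozymes, regulators and carriers, gave a similar count. Of the 54 that passed the filter on low counts, none was called at the threshold of the methods, beside 0.565% of all genes. None had an adjusted p under 0.05 in edgeR, beside 0.0550% of all genes. An unadjusted p under 0.05 was seen in 2 of the 54, beside 4.54% of all genes. DESeq2 called 1 at the threshold, where it called 1.32% of all genes. This was PGAM5, a mitochondrial phosphatase of the phosphoglycerate mutase family. PGAM5 had 99.6, 90.9 and 42.8 CPM in MOCK and 38.9, 29.8 and 43.6 CPM in CYGB, where MOCK replicate 3 lay with the CYGB libraries (log2 fold change -1.05, unadjusted p = 0.0197 in edgeR). SLC2A1, the main glucose transporter of cancer cells, had 1094, 1132 and 1112 CPM in MOCK and 1208, 1224 and 1319 CPM in CYGB, without overlap (log2 fold change 0.17, unadjusted p = 0.0325, adjusted p = 0.963 in edgeR). BSG, which escorts the lactate transporters to the membrane, was the other gene without overlap, at 489 ± 74.0 CPM in MOCK and 412 ± 16.7 CPM in CYGB (SD, n = 3 each). The groups thus did not overlap in 2 of the 54, beside 11.0% of all genes tested. The succinate dehydrogenase subunits SDHA, SDHB, SDHC and SDHD and the kinases PDK1 to PDK4 had unadjusted p-values from 0.29985 (PDK1) to 0.921 (PDK2) in edgeR. Estimates were above 0 in 28 of the 54 and below in 26.

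Overlapping genes and pseudogene copies limit some of these sums. A gene on the opposite strand held more than 5% of the member's counts for members that include DLD (LAMB1), IDH3A (CIB2), IDH3G (SSR4), PC (LRFN4), PDHA1 (MAP3K15), PDHX (APIP), PFKM (SENP1), PGLS (AC010618.3), RPE (KANSL1L) and SLC16A3 (CSNK1D). Listed pseudogenes had few counts, at 0.629 to 0.937% of those of LDHA, 0.248 to 0.335% for the 39 copies of GAPDH and at most 2.17% for TPI1. Reads that match a gene and its copy equally could have been counted for either.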

How the data were processed

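The authors deposited 1 table of raw read counts per transcript, without normalization, for 6 libraries (paired-end reads of 150 bases). Per the labels, HISAT2 and DESeq2 were used with hg19, but 99.6% of the positions equal those of GENCODE 29 on GRCh38, which is used here. The counting tool and the division of reads among isoforms are not given in the sources used here. Of 172678 transcripts, the 21225 without a gene (18.6 to 19.5% of counts) were left out. Totals were 58138393 to 66035266 counts, and the common biological coefficient of variation between libraries was 36.6% per gene.

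Counts were summed per gene, filtered by filterByExpr (minimum count 10), normalized by TMM and tested over all 19987 genes with edgeR 4.0.16 (glmQLFit, glmQLFTest) in R 4.3.3, CYGB against MOCK, without a block, and likewise per transcript. Adjusted p-values are Benjamini-Hochberg values over all features tested. DESeq2 1.42.0 was an alternative, and the others were size factors, filters, the replicate number as a block and omission of each library. TPM used GENCODE 29 transcript lengths. The steps were tested on simulated data. Figures were drawn with matplotlib 3.10.9.

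The members and lists were chosen with earlier results of these data known. Values in every library are given for members without overlap, with a called transcript, among the 5 smallest p-values or with the highest TPM of a step. DLAT, PFKP, SLC16A3 and others singled out for departing libraries were named after their values were seen. No same-numbered libraries deviated together (r of 0.0322, 0.00672 and 0.0324), so the numbers were not taken as pairs. Single values of some other genes are not reported here.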

Additional observations from a re-analysis of the deposited data

How the results depend on the processing

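No member was called at the threshold of the methods, and none had an adjusted p under 0.05, under DESeq2's size factors, DESeq2, no filter, a minimum mean of 50 counts, the replicate block, transcripts without a gene in the library sizes or summed ALDOA identifiers, the last 2 added after the data were seen. Leaving out each library gave 0 to 1 members called (0.593 to 0.853% of all genes), 2 to 7 members with an unadjusted p under 0.05 (3.89 to 5.63%), 5 to 18 without overlap (18.7 to 23.6%) and 0 to 2 other genes of the pathways (PGAM5, or ME2 and PFKFB2). DESeq2 called 1 of the other genes and 14 member transcripts, and the replicate block 1 member transcript, against 6. The share over all transcripts was not computed under DESeq2 or the replicate block, so these transcript counts have no background to be read against. The replicate numbers did not pair the libraries, and with the replicate block the LDHA log2 fold change was -0.29, that of PCK2 0.86 and that of SUCLG2 -0.18, whose unadjusted p went from 0.0417 to 0.0754. Of 196 single-gene estimates under the alternatives, 170 kept direction and side of an unadjusted p of 0.05 and 12 changed direction. The most abundant transcript alone gave 0.0517 for PKM and -0.0234 for GAPDH. Leaving out libraries gave -0.0794 to 0.248 for MDH1, -0.0707 to 0.0989 for GAPDH, -0.0448 to 0.0560 for LDHB, -0.499 to 0.0385 for DLD and -0.0216 to 0.0729 for MDH2 (log2). Of 88 share differences, 8 changed direction. Omissions gave -11.5 to 3.04 percentage points for PFKL, -4.21 to 0.222 for PFKM, -3.27 to 15.2 for PFKP, -0.446 to 1.43 for ALDOC and -1.41 to 3.08 for MDH1, whose share per kilobase was -0.713. The causes were not tested.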
